A study of Mus musculus with 7 samples.

Results

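The genes described here encode apolipoproteins, a lipase, cholesterol and phospholipid transporters and an apolipoprotein receptor, and they were measured in microglia of aged and young mice after stroke. They were chosen by symbol: Apoe, Apoc1, Apoc2, Apod, Clu, Lpl, Abca1, Abcg1, Abca7 and Lrp1, which makes 10 of the 50686 genes listed in each library. All 10 passed the filter on low counts. Microglia, the resident macrophages of the brain, were sorted by flow cytometry as CD11b+ CD45low cells that were also Bodipy+, where Bodipy is a dye that stains the neutral lipid of lipid droplets. Young mice (n = 4, codes 14C, 18C, 23C and 29C) were 3 to 4 months of age and old mice (n = 3, codes 2posI, 3posI and 4posI) were 21 to 22 months of age. All were C57BL/6 males without drug treatment, studied 4 days after transient occlusion of the middle cerebral artery. Each library came from 1 mouse. Every mouse of both ages was thus ischemic and every library Bodipy+, so the comparison is of age within lipid-laden microglia after ischemia. Total expected counts were 45379786 to 53002386 in the young and 36574083 to 46133564 in the old libraries.

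Apolipoproteins are the protein coats of lipoprotein particles and carry lipids between cells. In the brain, ApoE made by glia accepts cholesterol that ABCA1 and ABCG1 move out of the cell, and the loaded particle is taken up by neighbouring cells through receptors of the LDL receptor family such as LRP1. Liver X receptors, nuclear receptors that bind oxysterols and pair with retinoid X receptors, switch on Abca1, Abcg1 and Apoe when cholesterol accumulates, as happens in microglia that engulf myelin.

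The labelled cell type was checked against its markers first. Microglia markers were abundant in every library. Their summed TPM (a level per transcript length, scaled to the same total in each library) was 19400, 25070, 16690 and 20880 in young mice 14C, 18C, 23C and 29C and 17660, 8135 and 18900 in old mice 2posI, 3posI and 4posI. Markers of monocytes and infiltrating macrophages stood apart in 3posI. Their sum was 2328 TPM there, against 73.2 to 215 TPM in the other 6 libraries, and the log2 fold change was above 0 for 8 of 8 of them, 0 of which were called. Ly6c2 and Plac8 were above the young range in every old library. In CPM this held for 3 of the 8, where 17.7% of all genes tested did not overlap in one direction or the other. Ly6c2 was at 2.06 to 5.96 TPM in the young libraries and at 27.7, 320 and 19.6 TPM in old mice 2posI, 3posI and 4posI, and without 3posI it was called higher in old mice (log2 fold change 3.01, edgeR adjusted p = 0.0295). The most abundant, Chil3, was at 1217 TPM in 3posI and at 7.5 to 65.9 TPM elsewhere. Markers of border-associated macrophages were also highest in 3posI, with a sum of 1864 TPM against 556 to 1041 TPM in the others. Old mouse 3posI therefore combined the lowest microglia and the highest monocyte and macrophage markers, and values of the 10 genes that it moves most are given with and without it. Astrocyte markers, which matter here because astrocytes are rich in Apoe and Clu, summed to 58.2, 64.9, 90.2 and 61.9 TPM in the young and 94.6, 39.1 and 46.4 TPM in the old libraries. The defining astrocyte marker Aqp4 was at 0.28 to 1.28 TPM. The part of astrocyte RNA in the Apoe values was not tested.

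None of the 10 genes was called at an adjusted p under 0.05 (quasi-likelihood test of edgeR, Benjamini-Hochberg over 17559 genes). Over all genes 141 were called, or 0.803% of those tested. An unadjusted p under 0.05 was given to 4 of the 10 (Abca7, Abca1, Apod and Lrp1), against 18.9% of all genes tested. DESeq2, which called 9.07% of its tested genes, called 1 of the 10, Abca7. On simulated data DESeq2 made more false calls than edgeR and also recovered more of the changed genes, so neither result is preferred on that ground. At an edgeR threshold of 0.1, which 3.63% of all genes passed, 1 of the 10 was called, again Abca7. The log2 fold change, old over young, was above 0 for 4 genes and below 0 for 6, with a median of -0.06. Over all genes tested 48.8% were above 0 and the median was -0.01. The TMM-scaled CPM (the count relative to the scaled library total) of the ages did not overlap for 2 genes, Abca1 and Abca7, against 17.7% of all genes tested. The latter share, 2 of 10, was near that of all genes.

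**Figure D1:**
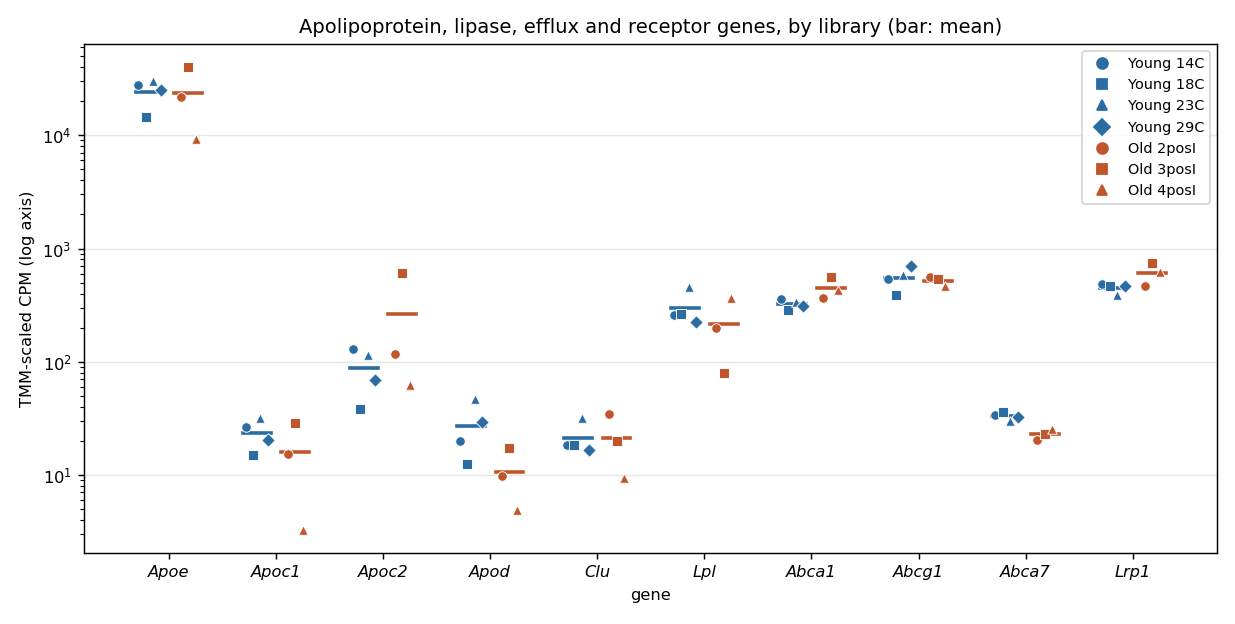
TMM-scaled CPM (log axis) of the 10 genes in each of the 4 young (blue) and 3 old (orange) libraries, 1 symbol per mouse, with a bar at the mean of each age. Apoe lies far above the others, and the ages are apart only for Abca1 and Abca7.

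**Figure D2:**
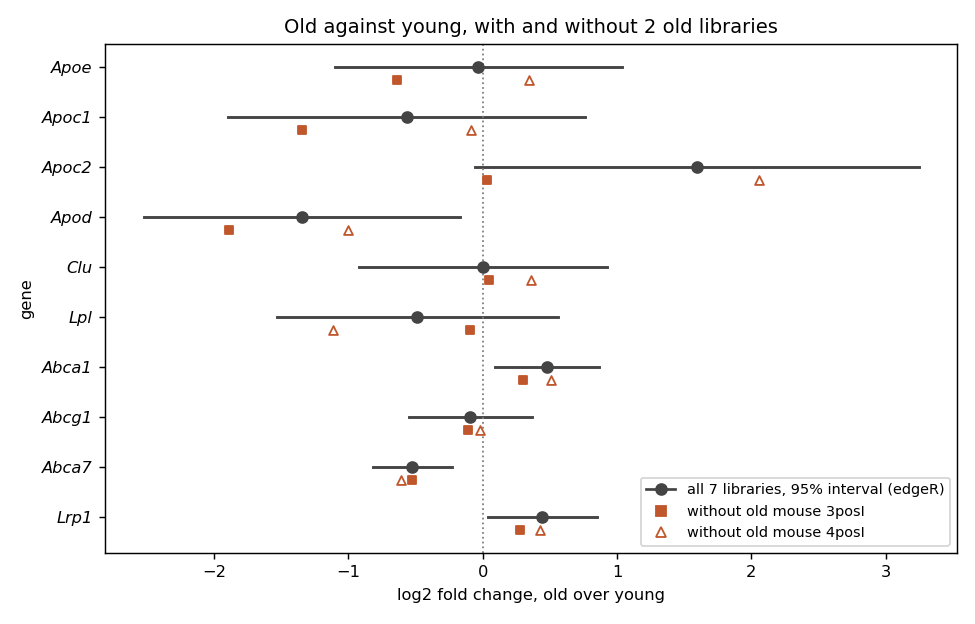
Log2 fold change, old over young, of each gene by edgeR with its 95% interval (black), and the value without old mouse 3posI (filled square) or 4posI (open triangle). Intervals are wide for the apolipoprotein genes and Lpl and narrow for the transporters and Lrp1, and Apoc2 moves from 1.59 to 0.03 without 3posI.

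The regulatory sequences of 3 genes are shown because Abca1 and Abca7 are the pair whose ages did not overlap, in opposite directions, and Apoe is the most abundant of the set. Each is the 250 bases before the RefSeq start (GRCm38.p6), read 5′ to 3′ on the gene's strand. RefSeq promoters matched 6 of the 10 genes. Capitals mark motif matches.
Abca1 (chr4:53159896-53160145, minus strand): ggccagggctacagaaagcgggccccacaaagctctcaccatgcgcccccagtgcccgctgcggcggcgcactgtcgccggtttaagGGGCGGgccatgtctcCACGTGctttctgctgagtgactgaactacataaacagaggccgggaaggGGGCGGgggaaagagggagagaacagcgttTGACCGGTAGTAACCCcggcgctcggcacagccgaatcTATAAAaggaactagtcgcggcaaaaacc
Abca7 (chr10:79996244-79996493, plus strand): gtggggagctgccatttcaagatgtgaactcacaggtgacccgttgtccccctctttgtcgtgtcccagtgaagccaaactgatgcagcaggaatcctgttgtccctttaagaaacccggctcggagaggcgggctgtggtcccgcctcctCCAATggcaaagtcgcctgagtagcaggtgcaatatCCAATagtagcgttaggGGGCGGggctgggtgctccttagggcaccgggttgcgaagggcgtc
Apoe (chr7:19699189-19699438, minus strand): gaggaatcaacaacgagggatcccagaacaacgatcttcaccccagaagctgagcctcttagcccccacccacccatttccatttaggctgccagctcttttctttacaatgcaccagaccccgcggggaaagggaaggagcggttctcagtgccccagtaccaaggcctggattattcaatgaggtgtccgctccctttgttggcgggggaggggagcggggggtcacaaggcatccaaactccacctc
The search covered both strands and 5 motifs. They were the liver X receptor element called DR4, AGGTCANNNNAGGTCA with at most 3 of its 12 fixed letters different, the E-box CACGTG, the CCAAT box, the GC box GGGCGG and the TATA box TATAAA. Abca1 held a DR4 match with 3 letters different on the opposite strand (bases 67 to 52 before the start), an E-box, GC boxes at 2 places and a TATA box 29 to 24 bases before the start. Abca7 held CCAAT boxes at 2 places and 1 GC box, and no DR4 or TATA match. Apoe held none of the 5 in this window; of its 2 further RefSeq starts, both inside the gene, 1 had a TATA box in its 250 bases. No matches overlapped in the 3 sequences shown. Of all 32851 promoters in the table, 18.5% held a DR4 match of this quality, 6.02% the E-box, 33.8% the CCAAT box, 32.7% the GC box and 12.4% the TATA box. These matches are letters in a window and say nothing of binding.

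Apoe, the main lipid carrier made by brain glia (chr7:19696109-19699188, minus strand, GRCm38), was among the most abundant transcripts of these microglia. It ranked 1st to 8th of all genes by TPM in the 7 libraries and took 0.936% to 3.65% of the total count. Its level was 27717, 14450, 30153 and 24930 CPM in young mice 14C, 18C, 23C and 29C and 21997, 40040 and 9327 CPM in old mice 2posI, 3posI and 4posI. The highest and the lowest library were both from old mice, and all 4 young libraries lay between them. The means were nearly equal, at 24313 ± 6913 CPM in the young (SD, n = 4) and 23788 ± 15430 CPM in the old (SD, n = 3). The log2 fold change was -0.03 (SE 0.47, 95% interval -1.10 to 1.04, edgeR adjusted p = 0.979). That interval reaches from 0.467-fold to 2.05-fold, so smaller differences were not detectable with these libraries. It was -0.63 without 3posI and 0.35 without 4posI. In bulk libraries such as these, fewer cells of a type and less RNA per cell cannot be told apart. The highest Apoe level came from the library with the highest monocyte markers; the part of those cells in it was not tested.

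Apoc1 and Apoc2 lie beside Apoe on the minus strand of chromosome 7 and encode small exchangeable apolipoproteins. ApoC-I inhibits lipoprotein lipase and related steps of remnant uptake, and ApoC-II is the activator that lipoprotein lipase needs. Apoc1 (chr7:19689481-19692660) was at 26.7, 15.1, 31.5 and 20.5 CPM in young mice 14C, 18C, 23C and 29C and at 15.3, 29.0 and 3.28 CPM in old mice 2posI, 3posI and 4posI. The ages overlapped, and old mouse 4posI was far below the other 6. Its log2 fold change was -0.57 (SE 0.58, edgeR adjusted p = 0.636), -1.34 without 3posI and -0.09 without 4posI.

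Apoc2 (chr7:19671579-19677941) had the largest fold change of the 10 by edgeR, and it rested on 1 library. By limma-voom its log2 fold change was 1.07, smaller in size than that of Apod (-1.41) and Apoc1 (-1.08). Its levels were 128, 38.3, 114 and 69.1 CPM in young mice 14C, 18C, 23C and 29C and 117, 614 and 61.8 CPM in old mice 2posI, 3posI and 4posI. Old mouse 3posI was over all others, while 2posI and 4posI were within the young range. The log2 fold change of 1.59 (SE 0.72, 95% interval -0.06 to 3.25, edgeR adjusted p = 0.278) became 0.03 without 3posI (adjusted p = 0.977). In that library the monocyte and macrophage markers were also highest, as given above, and their part in the value was not tested. Apoc2 shares 646 exonic bases with Gm44805, a read-through gene on the same strand, so its reads were divided in part. Gm44805 received counts of at most 415 (23C), or 7.13% of the Apoc2 count there, and with both summed the log2 fold change was 1.56 (adjusted p = 0.288).

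Over the 7 libraries, log2 CPM of Apoe moved with that of both neighbours. Pearson's r was 0.92 with Apoc1 (exact permutation p = 0.00198, adjusted over 3 pairs 0.00595) and Spearman's rho was 0.96 (exact permutation p = 0.00278, adjusted 0.00833). With Apoc2, r was 0.76 (exact permutation p = 0.023, adjusted 0.0345) and rho was 0.79 (exact permutation p = 0.048, adjusted 0.072). These r values were 0.80 and 0.85 without the 2 libraries farthest from the median of Apoe (18C and 4posI), and 0.97 and 0.94 after centring on the age means. Without 3posI they were 0.94 with Apoc1 and 0.69 with Apoc2. Between Apoc1 and Apoc2, r was 0.48 (exact permutation p = 0.174, adjusted 0.174) and rho was 0.68 (exact permutation p = 0.11, adjusted 0.11). After centring on the age means r of this pair was 0.88, and without 3posI it was 0.46. All points share their libraries and depth with the gene they are set against. The pairs were looked at after the levels had been seen.

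The share of the neighbours relative to Apoe nevertheless differed in level between the ages. Apoc2 was at 0.806%, 0.461%, 0.658% and 0.479% of Apoe TPM in young mice 14C, 18C, 23C and 29C and at 0.934%, 2.71% and 1.15% in old mice 2posI, 3posI and 4posI. All 3 old libraries were over the young range, also without 3posI. Apoc1 went the opposite way, at 0.254%, 0.275%, 0.274% and 0.216% of Apoe TPM in the young and 0.184%, 0.194% and 0.0924% in the old libraries. Both ratios were chosen after the values were seen and are a description without a test.

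**Figure D3:**
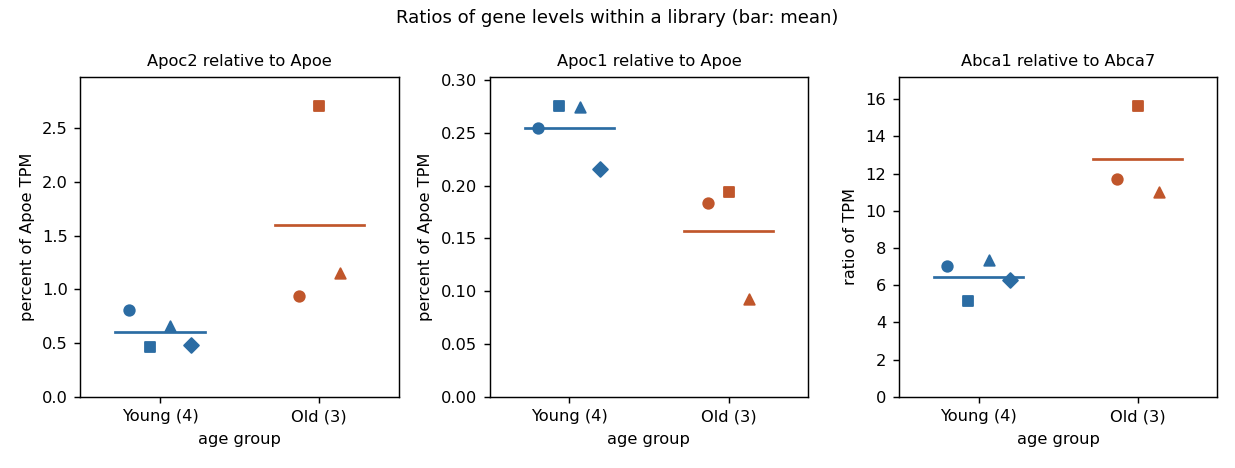
Apoc2 and Apoc1 as a percent of Apoe TPM, and the ratio of Abca1 to Abca7 TPM, in each young (blue, 4) and old (orange, 3) library, with symbols per mouse in the same order as in the plot of levels and a bar at the mean. In each panel the ages do not overlap: Apoc2 relative to Apoe and Abca1 relative to Abca7 are higher in old mice, Apoc1 relative to Apoe lower.

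Apod and Clu encode apolipoproteins that are unrelated to ApoE in fold. ApoD is a lipocalin that binds arachidonic acid and other small lipids, and clusterin, also called ApoJ, is a secreted chaperone. Apod (chr16:31296192-31314808, minus strand) was at 19.8, 12.4, 46.4 and 29.1 CPM in young mice 14C, 18C, 23C and 29C and at 9.71, 17.2 and 4.92 CPM in old mice 2posI, 3posI and 4posI. The highest of the old libraries, 3posI, lay within the young range, and 23C was the highest of all. Old over young, the log2 fold change was -1.35 (SE 0.52, 95% interval -2.52 to -0.17), which did not pass after adjustment (edgeR adjusted p = 0.211). It was -1.89 without 3posI, -1.004 without 4posI and -0.95 without 23C. Pericyte and fibroblast markers, cell types known to be rich in Apod, were also highest in 23C, with a sum of 126 TPM against 17.7 to 31.1 TPM in the other young and 8.59 to 22 TPM in the old libraries. Their most abundant gene, Dcn, was at 43.4 TPM in 23C and their part in the Apod values was not tested.

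Clu (chr14:65968483-65981547, plus strand) was at 18.3, 18.5, 31.7 and 16.7 CPM in young mice 14C, 18C, 23C and 29C and at 34.8, 19.96 and 9.39 CPM in old mice 2posI, 3posI and 4posI. The highest and the lowest library were again both old. Its log2 fold change was 0.00 (SE 0.41, 95% interval -0.92 to 0.93, edgeR adjusted p = 0.998). The libraries 23C and 2posI, highest in Clu, were also highest in the summed astrocyte markers (90.2 and 94.6 TPM). The same held for the astrocyte filament gene Gfap (33.2 and 24.9 TPM, against 2.48 to 9.38 TPM elsewhere). It also held for Aqp4, Aldh1l1, Aldoc and S100b, but not for Slc1a3, Slc1a2, Gja1, Gjb6, Fgfr3 and Sox9. Slc1a3, the most abundant astrocyte marker, was at 20.4 TPM in 23C and 30.2 TPM in 2posI. Both values were over 3posI but under 14C, 18C, 29C and 4posI. The part of astrocyte RNA in the Clu values was not tested.

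Lpl encodes lipoprotein lipase, which releases fatty acids from triglyceride-rich particles and is a marker of microglia responding to damage. Lpl (chr8:68880491-68907448, plus strand) was at 258, 266, 453 and 224 CPM in young mice 14C, 18C, 23C and 29C and at 198, 79.8 and 366 CPM in old mice 2posI, 3posI and 4posI. The ages overlapped, with 2posI and 3posI under the young range and 4posI within it. The log2 fold change was -0.49 (SE 0.46, 95% interval -1.53 to 0.56, edgeR adjusted p = 0.600), -0.09 without 3posI and -1.12 without 4posI. The library lowest in Lpl, 3posI, was also the one lowest in microglia markers. Among the old libraries alone, Lpl and Apoe thus ran in reverse order: 3posI was highest in Apoe and lowest in Lpl, and 4posI was lowest in Apoe and highest of the old in Lpl. Among the young, 23C was highest in both, at 30153 CPM for Apoe and 453 CPM for Lpl, the latter the highest of all libraries.

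The effective length, the mean transcript length open to reads given the isoforms that RSEM assigned, differed between the ages for 2 of the 10 genes. For Lpl it was 2462 to 2541 bases in the young and 2718 to 2826 bases in the old libraries, longer in every old one. For Lrp1 it was 3003 to 3372 bases in the young and 2534 to 2973 bases in the old libraries, shorter in every old one. Effective lengths of the ages did not overlap for 27.1% of the 6738 genes of at least 10 CPM whose length varied. The differences of Lpl and Lrp1 between the ages were therefore larger per length than in CPM.

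The transporters were steadier between mice. Abca1 encodes the transporter that hands cholesterol and phospholipid to lipid-poor ApoE or ApoA-I, and Abcg1 encodes the one that loads particles already formed. Abca1 (chr4:53030787-53159895, minus strand) was at 360, 285, 338 and 313 CPM in young mice 14C, 18C, 23C and 29C and at 366, 557 and 431 CPM in old mice 2posI, 3posI and 4posI. All 3 old libraries were over the young range, though 2posI exceeded 14C by little. Its log2 fold change was 0.48 (SE 0.17, 95% interval 0.09 to 0.86) without passing the adjusted threshold (edgeR adjusted p = 0.184). It was 0.30 without 3posI (adjusted p = 0.343). In TPM the ages of Abca1 overlapped, with 43.9 TPM in 2posI and 49.7 TPM in 14C.

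Abcg1 (chr17:31057675-31117988, plus strand), a target of the same nuclear receptors, did not share this pattern of levels. It was at 541, 387, 588 and 697 CPM in young mice 14C, 18C, 23C and 29C and at 560, 533 and 466 CPM in old mice 2posI, 3posI and 4posI. All 3 old libraries lay inside the young range. Old over young, the log2 fold change was -0.09 (SE 0.20, edgeR adjusted p = 0.840), and its 95% interval of -0.55 to 0.37 reaches from 0.683-fold to 1.29-fold.

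Abca7 encodes a transporter that moves phospholipid more than cholesterol, and its human counterpart is a risk gene of Alzheimer's disease. Abca7 (chr10:79996494-80015572, plus strand) was at 33.5, 36.1, 29.8 and 32.5 CPM in young mice 14C, 18C, 23C and 29C and at 20.2, 23.1 and 25.4 CPM in old mice 2posI, 3posI and 4posI. All 3 old libraries were under the young range, in CPM and in TPM, with means of 33.0 ± 2.58 CPM in the young (SD, n = 4) and 22.9 ± 2.60 CPM in the old (SD, n = 3). The log2 fold change was -0.52 (SE 0.13, 95% interval -0.82 to -0.23), the smallest p of the 10 genes, with an adjusted p of 0.0968 by edgeR, 0.103 by limma-voom and 0.00966 by DESeq2. It was -0.53 without 3posI. The ratio of Abca1 to Abca7 TPM was 5.14 to 7.36 in the young and 11 to 15.6 in the old libraries, without overlap. The 2 genes were paired because their ages did not overlap in CPM, in opposite directions, and the ratio in part restates that. In TPM the levels of Abca1 alone overlapped between the ages. The ratio of Abca1 to Abcg1 TPM overlapped between the ages, at 0.157 to 0.257 in the young and 0.228 to 0.364 in the old libraries. These ratios too were chosen after the values were seen and were not tested.

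Lrp1 encodes a large endocytic receptor that takes up ApoE particles and many other ligands, myelin debris among them. Lrp1 (chr10:127538161-127621148, minus strand) was at 481, 465, 388 and 468 CPM in young mice 14C, 18C, 23C and 29C and at 469, 747 and 620 CPM in old mice 2posI, 3posI and 4posI. In CPM the ages overlapped, since 2posI lay just under 14C. Its log2 fold change was 0.44 (SE 0.18, 95% interval 0.04 to 0.85, edgeR adjusted p = 0.228), and 0.27 without 3posI. Per length the ages did not overlap, with 183 to 200 TPM in the young and 227 to 329 TPM in the old libraries. With the effective length as an offset in the same fit, the log2 fold change was 0.65 (edgeR adjusted p = 0.0779). In TPM, 2 of the 10 genes (Lrp1 and Abca7) had ages that did not overlap, against 17.5% of all genes tested. An antisense gene inside Lrp1, Gm16217, shares no exonic bases with it and had 6 to 28 counts a library.

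By mean TPM over the 7 libraries the order was Apoe (31763 TPM), Apoc2 (368 TPM), Lrp1 (233 TPM), Abcg1 (204 TPM), Lpl (140 TPM), Apoc1 (70.8 TPM), Abca1 (50 TPM), Apod (27.6 TPM), Clu (16.5 TPM) and Abca7 (5.9 TPM). Apoe was over Apoc2 in all 7 libraries without overlap of their ranges, and for every other pair of neighbours in this order the ranges overlapped. Clu was nevertheless above Abca7 within each of the 7 libraries. Apoc2 was above Lrp1, and Lrp1 above Abcg1, in 4 of 7 libraries, so those levels had no fixed order. The place of Apoc2 rested on 3posI, with 1339 TPM there against 94.7 to 308 TPM in the others. By the means of the young libraries Abcg1 (215 TPM) was above Apoc2 (209 TPM) and Lrp1 (194 TPM).

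The spread between mice of one age was wider for the apolipoprotein genes and Lpl than for the other 4, a grouping made after the values were seen. The SD of log2 CPM within an age was 0.68 (Clu), 0.76 (Apoe), 0.78 (Lpl), 0.85 (Apod), 1.08 (Apoc1) and 1.24 (Apoc2) for the 5 apolipoprotein genes and Lpl. It was 0.14 (Abca7), 0.22 (Abca1), 0.24 (Lrp1) and 0.29 (Abcg1) for the transporters and the receptor. Over the 8146 genes of at least 10 CPM on average the median was 0.21. The apolipoprotein genes and Lpl were at percentiles 95.6 to 99.1 of that spread and the other 4 at percentiles 21.0 to 70.7. The ratio of the highest to the lowest library was 16.0 for Apoc2, 9.60 for Apoc1, 9.43 for Apod, 5.68 for Lpl, 4.29 for Apoe and 3.71 for Clu, against 1.78 to 1.95 for Abca7, Abcg1, Lrp1 and Abca1. Single old libraries set the 2 largest of these ratios. Apoc2 was at 614 CPM in 3posI and 38.3 to 128 CPM in the others. Apoc1 was at 3.28 CPM in 4posI and 15.1 to 31.5 CPM in the others. Among the young mice alone the groups were closer, with 1.90 (Clu) to 3.74 (Apod) against 1.21 (Abca7) to 1.80 (Abcg1).

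**Figure D4:**
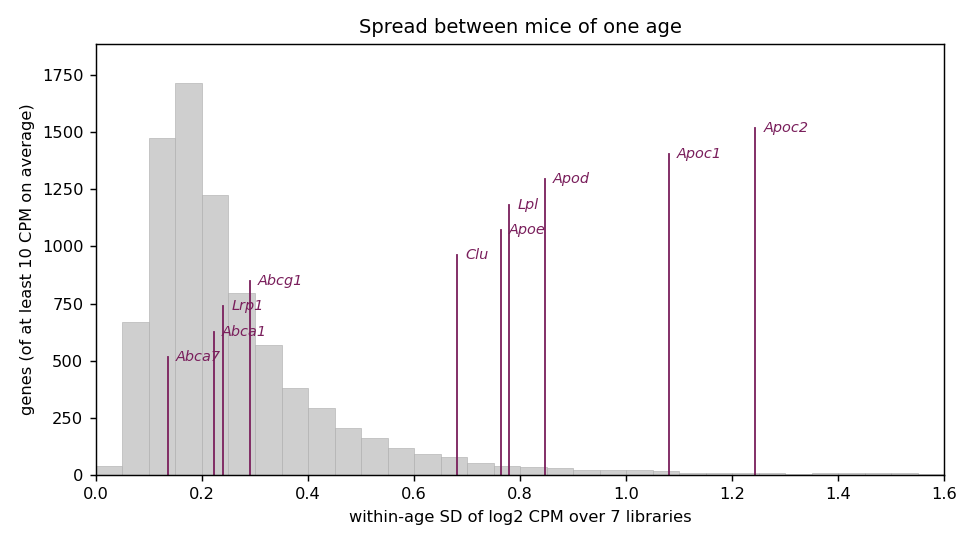
Number of genes (vertical axis) by the SD of log2 CPM between mice of one age (horizontal axis), for the 8146 genes of at least 10 CPM on average, with a line at each of the 10 genes whose height has no meaning. Abca7, Abca1, Lrp1 and Abcg1 lie in the bulk of the genes, and Clu, Apoe, Lpl, Apod, Apoc1 and Apoc2 lie in the upper tail.

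The wider pathway was described through 7 lists of 96 different genes, 79 of which were tested. edgeR's adjusted threshold was passed by 0 upward and 1 downward, Scarb1, against 0.803% of all genes tested. An unadjusted p under 0.05 was given to 17 of the 79, against 18.9% of all genes tested. The median log2 fold change of the 79 was 0.03, with 41 above 0 and 38 below. Among them, 10 genes were higher and 7 lower in all old libraries, or 17 of 79, against 17.7% of all genes tested.

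Scarb1, the receptor through which cells exchange cholesterol with high-density lipoprotein, fell in old mice. It was at 112, 104, 129 and 131 CPM in young mice 14C, 18C, 23C and 29C and at 44.2, 60.5 and 45.4 CPM in old mice 2posI, 3posI and 4posI. The highest old library was well under the lowest young one. Old over young, the log2 fold change was -1.25 (SE 0.16, edgeR adjusted p = 0.0236). Scarb1 was called under 13 of 13 other settings and kept a log2 fold change of -1.41 to -1.17 with any 1 library left out. With 1 library fewer it was called without 3posI (adjusted p = 0.0213) or 4posI, and no longer called without 14C, 18C, 23C, 29C or 2posI (adjusted p up to 0.108). Of 10 endothelial markers, 8 had a log2 fold change below 0, with a median of -0.66, and 3 were lower in every old library, where 17.7% of all genes tested did not overlap in one direction or the other. Their sum was 97.0, 56.1, 126 and 97.2 TPM in young mice 14C, 18C, 23C and 29C and 49.9, 59.2 and 40.3 TPM in old mice 2posI, 3posI and 4posI, Cldn5 being the most abundant, and their part in the Scarb1 values was not tested.

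Scarb1 was the 1 call, downward, among the 15 tested lipoprotein receptors and their regulators. Lrp10, a sorting receptor of the same family as Lrp1, had means of 165 ± 28.3 CPM in the young and 96.0 ± 27.7 CPM in the old (log2 fold change -0.78, edgeR adjusted p = 0.128). Its ages did not overlap. Trem2, a microglial receptor that binds ApoE and other lipids, was the most abundant of the list and its means were nearly equal, at 1449 ± 189 CPM in the young and 1446 ± 335 CPM in the old (log2 fold change 0.00, SE 0.20, edgeR adjusted p = 0.995).

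Liver X receptors and their targets gave 0 calls in 15 tested genes, with 7 above 0 and 8 below. Rxra and Rxrg, which encode retinoid X receptors, their partners, had the smallest p values of this list. Rxra was at 24.5 to 30.7 CPM in the young and 37.4 to 51.4 CPM in the old libraries (log2 fold change 0.68, SE 0.15, edgeR adjusted p = 0.0718). Rxrg was at 1.08 to 4.13 CPM in the young and 5.93 to 14.3 CPM in the old libraries (log2 fold change 1.98, SE 0.46, edgeR adjusted p = 0.0841). The ages overlapped for neither. For Rxrb, the other retinoid X receptor gene, they overlapped (log2 fold change -0.24, edgeR adjusted p = 0.524). Lpcat3, a target of liver X receptors that remodels membrane phospholipids, lay the other way, at 145 to 174 CPM in the young and 103 to 128 CPM in the old libraries (log2 fold change -0.45, edgeR adjusted p = 0.121). Of the liver X receptor genes themselves, Nr1h3 was at 35.7 CPM in 3posI and 1.45 to 5.20 CPM elsewhere. Its log2 fold change was 2.12 (edgeR adjusted p = 0.173), and 0.49 without 3posI. That of Nr1h2 was -0.08 (edgeR adjusted p = 0.738), and the ages overlapped for both.

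Genes of lysosomal and intracellular cholesterol handling gave 0 calls in 17 tested, with 10 above 0 and 7 below. Npc1 and Npc2 together export cholesterol from the lysosome. Npc1 was at 80.7 to 95.7 CPM in the young and 127 to 196 CPM in the old libraries (log2 fold change 0.77, SE 0.17, edgeR adjusted p = 0.0753), and 0.54 without 3posI. Npc2 was at 978 to 1256 CPM in the young and 1230 to 1647 CPM in the old libraries (log2 fold change 0.49, edgeR adjusted p = 0.179). Gramd1a, which carries cholesterol from the plasma membrane to the endoplasmic reticulum, was at 245 to 259 CPM in the young and 123 to 183 CPM in the old libraries (log2 fold change -0.81, SE 0.16, edgeR adjusted p = 0.0591). The levels of Npc1 and Gramd1a did not overlap between the ages and lay in opposite directions, while those of Npc2 overlapped.

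**Figure D5:**
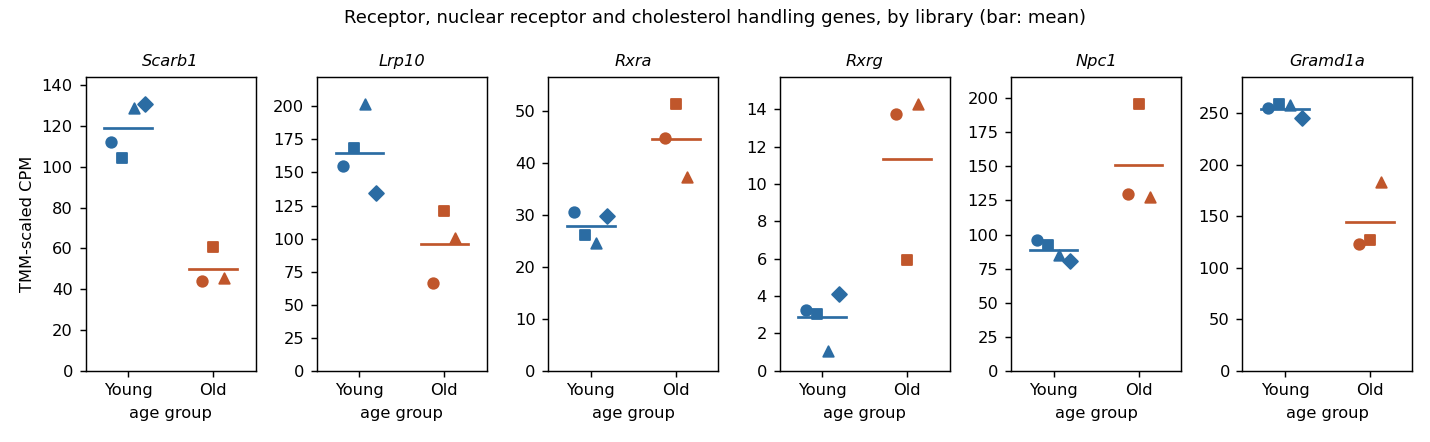
TMM-scaled CPM (vertical axes from 0) of 6 pathway genes in each young (blue, 4) and old (orange, 3) library, with a bar at the mean. Scarb1, the 1 gene of the 6 that passed the adjusted threshold, is at 104 to 131 CPM in young and 44.2 to 60.5 CPM in old mice; the ages do not overlap in any panel.

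Lipases and partners of Lpl gave 0 calls in 7 tested genes, with 0 above 0 and 7 below and a median log2 fold change of -0.26. Lmf2, a maturation factor related to the one lipoprotein lipase needs in the endoplasmic reticulum, was at 94.3 to 118 CPM in the young and 60.4 to 95.3 CPM in the old libraries (log2 fold change -0.47, edgeR adjusted p = 0.191). Sel1l, which also serves the folding of lipoprotein lipase, was at 142 to 178 CPM in the young and 125 to 138 CPM in the old libraries (log2 fold change -0.26, edgeR adjusted p = 0.288). Lipoprotein remodelling genes gave 0 calls in 8. Pla2g7, a lipoprotein-associated phospholipase, was at 40.1 to 198 CPM in the young libraries and at 218, 1007 and 85.4 CPM in old mice 2posI, 3posI and 4posI, and its log2 fold change of 1.87 (edgeR adjusted p = 0.272) became 0.34 without 3posI, as for Apoc2. Pon2, a paraoxonase, had a log2 fold change of -0.18 (edgeR adjusted p = 0.524).

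Other transporters of the Abca and Abcg families gave 0 calls in 12 tested genes. Abcg2, a drug and sterol exporter with the highest mean TPM of them (though Abca9 was above it in 4 of 7 libraries), was at 32.7 to 37.7 CPM in the young and at 27.9, 14.8 and 30.3 CPM in old mice 2posI, 3posI and 4posI (log2 fold change -0.56, edgeR adjusted p = 0.235, and -0.30 without 3posI), and Abca8b was at or under 0.477 CPM in every library. Other apolipoprotein genes gave 0 calls in 10 tested, with 8 above 0 and 2 below and a median log2 fold change of 0.68. They were scarce. The most abundant, Apoc4, which lies in the same cluster as Apoe, was at 2.80 to 9.38 CPM in the young and at 7.63, 9.20 and 1.47 CPM in old mice 2posI, 3posI and 4posI (log2 fold change -0.26, edgeR adjusted p = 0.846, and -0.69 without 3posI). Its lowest library, 4posI, was also the lowest for Apoe, Apoc1, Apod and Clu. Apof and Apol7c, which had the smallest p values of that list, stayed at or under 0.566 CPM in all libraries.

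The genes whose profile over the 7 libraries was most like that of Apoe were Pam, Acaa2, Shtn1, Prnp and Enpp1, with a mean absolute difference of 0.13 to 0.22 in centred log2 CPM. Acaa2, a mitochondrial thiolase, was at 66.5, 40.8, 88.0 and 62.7 CPM in young mice 14C, 18C, 23C and 29C and at 64.6, 91.1 and 37.3 CPM in old mice 2posI, 3posI and 4posI, and thus was highest in 3posI and lowest in 4posI, as Apoe was. Those most like Abca1 were Zdhhc21, Kpna4, Mknk2, Bahd1 and Mtmr3, with differences of 0.05 to 0.08 and log2 fold changes of 0.39 to 0.56.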

How the data were processed

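Sex, day and sort of the 7 libraries were taken from the study's methods, age from the labels. The authors used skewer for trimming, STAR for mapping to GRCm38 and RSEM on GENCODE m15; versions for STAR and RSEM: not given in the sources used here. Deposited by the authors were unnormalized expected counts, TPM and FPKM values, the last 2 scaled within each library, and FPKM was not used. Libraries were non-stranded Smart-seq2, and no molecular identifiers are named, so counts include PCR copies. The labels name a PureLink kit for RNA extraction. The methods name PicoPure for that step, with the lysis buffer and the DNase from PureLink products.

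Expected counts were rounded. Genes needed a count above 10 in at least 1 library, and chromosomes X, Y and M were left out (17559 genes tested). In R 4.3.3, edgeR 4.0.16 gave TMM factors and the quasi-likelihood test of age with Benjamini-Hochberg adjustment at 0.05, in place of the limma-voom (limma 3.58.1) of the methods, which is an alternative, as is DESeq2 1.42.0. Log2 CPM had a prior count of 1. Gene positions came from GENCODE vM21. The fits were tested on simulated data, where DESeq2 made more false calls than edgeR or limma-voom and also recovered more of the changed genes. Those data were drawn with the spread between libraries that edgeR estimated. The genes, lists and tests were chosen with earlier results of these data known. Besides the 10 genes, the text names in each pathway list the 2 tested genes with the smallest p, the most abundant one and any called; in each marker list the most abundant; and the 5 genes most like Apoe and Abca1 in profile. Ly6c2, Plac8, Aqp4, Gfap, Abca9, Cd8a, Trac, Nkg7, Rxrb, Nr1h2, Nr1h3, Slco1a4 and the plotted selection of 6 genes were chosen after their values were seen. The remaining astrocyte markers apart from Slc1a3 were also named after their values were seen. Some marker genes are not reported here.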

Additional observations from a re-analysis of the deposited data

Results flagged for a closer look

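In the group of 4 young mice, 5 of 41 values held 1 library far from the other 3, by the gap to the nearest over the whole range, where chance gives about 1 in 20, or 2.05. Clu was at 31.7 CPM in 23C and 16.7 to 18.5 CPM in the others (gap over range 0.88). Apoc4 was at 2.80 CPM in 18C and 8.42 to 9.38 CPM in the others (0.855). Apol7c was at 0.0433 CPM in 14C, from a count of 2, and listed at 0 in the others (1.0). With the others at 0 that ratio could only be 1.0, so this value, though among the 5, has no weight against the share given by chance. Summed pericyte and fibroblast markers were at 126 TPM in 23C and 17.7 to 31.1 TPM in the others (0.876). Summed oligodendrocyte markers were at 74 TPM in 18C and 80.8 to 82 TPM in the others (0.858).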

How the results depend on the processing

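Against 141 genes called by edgeR, 143 were called by limma-voom, 1399 were called by DESeq2, 318 by limma-voom with sample quality weights, 288 without a filter on low counts, 213 with the effective-length offset, 64 and 71 on log2(TPM + pseudocount) with pseudocounts of 1 and 0.1, 16 on TPM without a filter, 637 at a threshold of 0.1 (3.63% of genes), and 1 to 159 with 1 library left out. Of the 10 genes, 0 were called under all these settings but DESeq2 and the threshold of 0.1, where 1 was, Abca7 (DESeq2 log2 fold change -0.52). Clu changed sign, to -0.031 with upper-quartile factors, -0.0358 without scaling factors, -0.20 with limma-voom, -0.0824 with sample quality weights, -0.0225 without a filter, -0.22 on TPM with a pseudocount of 1 (and -0.22 without a filter there) and -0.24 with 0.1, and spanned -0.54 to 0.36 with 1 library left out. Apoe spanned -0.63 to 0.35 and Abcg1 -0.22 to 0.0391 in the same way. Without a change of sign, over all settings that kept all libraries, Apoc2 spanned 0.47 to 1.61, Apoc1 -1.40 to -0.55 and Lpl -0.93 to -0.34, where the limma-voom and TPM fits departed most from edgeR. The cause was not tested. Of 201 values of single genes under an alternative, 183 kept direction and side of the threshold. No paired analysis was possible because the young and old libraries came from different mice and the labels give no pairing. With 4 and 3 libraries and a within-age SD of 0.68 to 1.24 on the log2 scale, the apolipoprotein genes and Lpl have wide intervals, and the value of Apoc2 rests on 3posI.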

Other observations

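Summed markers of other brain and blood cells, beside those already given, ranged from 1.28 TPM (neurons) to 462 TPM (neutrophils). All were below the summed microglia markers of the same library. Summed neuron markers (Rbfox3 the most abundant) were at 1.28 to 3.6 TPM, those of T and NK cells (Cd4) at 1.4 to 7.3 TPM and those of oligodendrocyte precursors (Cspg4) at 9.27 to 33.6 TPM. Oligodendrocyte markers (Cnp) summed to 74 to 88.2 TPM, endothelial markers (Cldn5) to 40.3 to 126 TPM, B cell markers (Ighm) to 48.9 to 235 TPM and neutrophil markers (Csf3r) to 97.3 to 462 TPM. Choroid plexus and ependymal markers summed to 110 to 312 TPM, almost all of it Ttr, a carrier of thyroxine and retinol. Of astrocyte markers the most abundant was Slc1a3 (11 to 42.4 TPM) and of border-associated macrophage markers Stab1 (367 to 672 TPM). Each of these sums overlapped between the ages. Of the 8 tested T and NK cell markers, 7 had a log2 fold change above 0 and 1 below (median 3.63, 0 called). An unadjusted p under 0.05 by edgeR was given to 6 of the 8, against 18.9% of all genes tested. In every old library 3 of them, Cd8a, Trac and Nkg7, were above the young range, at levels of at most 2.43 TPM. Over all genes tested, 17.7% did not overlap in one direction or the other. The 6 choroid plexus and ependymal markers all lay below 0 (median -1.13, 0 called). An unadjusted p under 0.05 by edgeR was given to 3 of them, against 18.9% of all genes tested. The same 3 were lower in every old library, at levels of at most 3.11 TPM. Over all genes tested, 17.7% did not overlap in one direction or the other. Ttr had a log2 fold change of -0.28 (edgeR adjusted p = 0.718). Among all marker genes tested, edgeR called 0 higher and 1 lower in old mice, Slco1a4, an endothelial organic anion transporter (log2 fold change -1.66, edgeR adjusted p = 0.028), which kept the call without 3posI and lost it without any 1 of the other 6 libraries (adjusted p up to 0.121), with a log2 fold change of -1.78 to -1.57 throughout, and was called under 11 of 13 other settings.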
